A study of Danio rerio with 2 samples.

Results

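The cytosolic ribosomal protein genes encode the protein components of the ribosome that translates messages outside the mitochondria. They were identified by name in the expression table, as every gene called rpl or rps followed by a digit, or called rpsa, rplp0, rplp1, rplp2 or rplp2l, in upper or lower case. The 10 rps6k kinase genes were left out, as were 4 names that carry an l for "like" (RPL36AL, rps11l, RPL7L1 and RPL22L1) and rps19bp1, which encodes a binding protein of a ribosomal protein. This gave 69 members among 27931 genes, 38 of the large subunit and 31 of the small subunit. Of 80 standard names of vertebrate ribosomal proteins, 65 had a member and 15 had none (among them rpl13, rpl14, rpl24, rpl26, rpl27a, rpl36, rpl36a, rpl37a, rpl41, rpsa, rps3, rps18 and rps30). RACK1 is in the table, but its name is not one the rule takes.

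A ribosome has a small subunit, which reads the message, and a large subunit, which joins the amino acids. The proteins of both are needed in near equal numbers, and in vertebrates their messages share a tract of pyrimidines at the start (the TOP motif) through which growth signals set their translation together. Ribosomal protein messages are among the most abundant in dividing embryonic cells. In humans, loss of one copy of several of these genes causes Diamond-Blackfan anaemia, a failure of red cell production.

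The cells came from zebrafish embryos of the line Tg(-2.3 etv2:GFP)zf372, in which GFP is under the regulatory sequence of etv2, a gene that starts the vascular and blood programme in mesoderm, and all received no treatment and were grown, per the labels, at 28.5 °C, whereas the study's methods describe a cooler incubation for part of early development. GFP-positive cells were sorted from pooled embryos of 2 stages, 15-18 somites and 20 somites per the labels. The study's methods give a slightly narrower span for the earlier stage. Per the methods, the suspension of each stage was loaded separately onto a Fluidigm C1 chip. From each stage 48 cells were sequenced from polyadenylated RNA. Each stage was 1 sample, with its own date and chip loading, so stage, day and chip cannot be told apart. Cells are not replicates, and every value below is a description of these 96 cells without a test. The study grouped the cells into 8 populations, with 4 endothelial ones, named endothelial progenitor cells (EPC, 14 cells), arterial (13), venous (8) and EC2 (7), and 4 others, named tailbud (28), macrophages (11), epithelial (10) and erythrocytes (5).

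The values were transcripts per 1000000 transcripts (TPM), which add up to that total in every cell and are corrected for transcript length, so that levels can be compared between genes. TPM keeps no read depth, and the number of genes above 1 TPM was used to describe each cell. Of 8 marker lists, 7 were highest in the population of that name. The exception was the arterial list (cldn5b, dll4, efnb2a, HEY2), with a mean log2(TPM + 1) of 8.41 in EC2 and 7.88 in the arterial cells. The study described its endothelial populations from these same cells by genes in these lists, such as etv2, flt4, dll4 and col4a1. A match there was largely set in advance and is no check of the names. The tailbud list (msgn1, tbx16, myf5, cdx4) was highest in population 3 but reached a mean of only 1.35 there, a low level. The list was chosen here, so it does not show on which genes the study's name for that population rests.

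A few cells of population 3 stood apart in their ribosomal protein values. In 2 of them, both from the 15-18 somite stage, mitochondrial transcripts made up 62.6% and 86.8% of TPM, against 0.212% to 16.7% (median 3.11%) in the other 94 cells. The same 2 cells had 37 and 51 of the 69 members above 1 TPM, with 3697 and 1845 genes detected in all. Results are therefore given for all 96 cells and, where they differ, for the 94 cells without these 2.

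Ribosomal protein messages were a large part of the transcripts of nearly every cell. The 69 members held 17.4% of TPM on average over the 96 cells (SD 5.13 over cells, median 17.3%), and 86 cells lay between 10% and 25%. The 2 cells rich in mitochondrial transcripts had the lowest shares, 0.106% and 0.490%. The highest share was 35.6%, in a tailbud cell at 20 somites. Within the members' TPM the small subunit took a nearly constant part over the 94 cells. Its median there was 43.5% (SD 2.38, range 36.3% to 52.8%), close to its 44.9% of the member genes. The means by population and stage lay between 41.6% and 45.1%. The 2 cells rich in mitochondrial transcripts were the extremes, with 25.2% and 62.5%, and the SD over all 96 cells was 3.59.

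**Figure D1:**
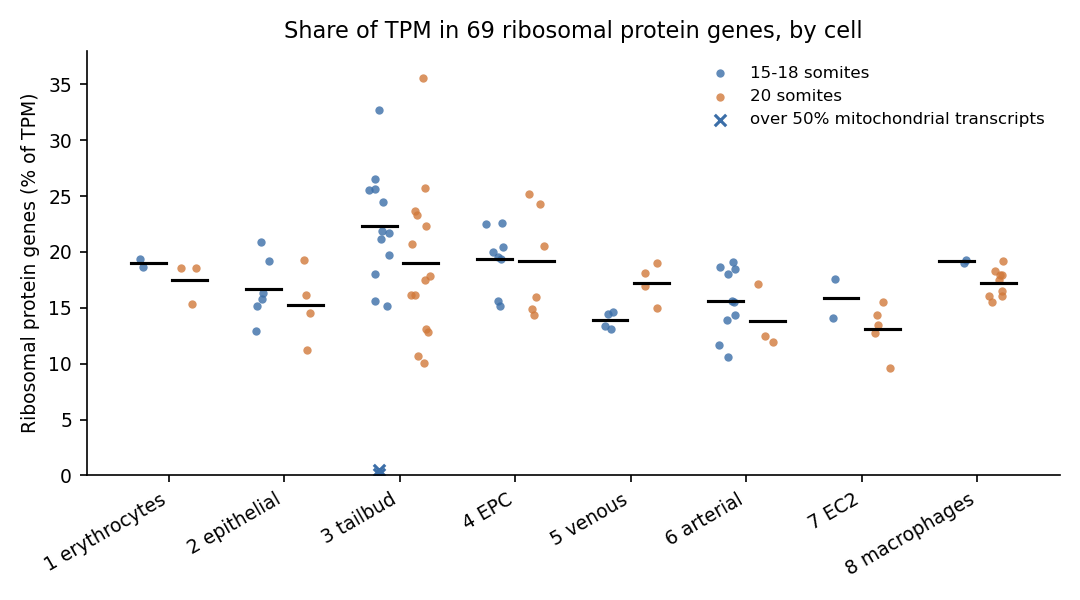
Share of each cell's TPM that fell in the 69 ribosomal protein genes (vertical axis, percent), by population of the study and stage. Points are cells, bars are means without the 2 cells marked by crosses, in which over 50% of TPM was mitochondrial; the tailbud cells spread most and the venous cells of the 2 stages do not overlap.

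Between populations, the endothelial progenitors, tailbud cells, erythrocytes and macrophages had the higher shares over both stages. The differentiated endothelial populations and the epithelial cells had the lower ones. At 20 somites alone the venous mean of 17.3% was close to those of erythrocytes (17.5%) and macrophages (17.2%). With both stages weighted equally, the mean share was 19.3% in EPC (SD 3.61 over 14 cells), 19.1% in tailbud (SD 7.995, 28 cells), 18.3% in erythrocytes (SD 1.57, 5 cells) and 18.2% in macrophages (SD 1.36, 11 cells). Without the 2 mitochondria-rich cells the tailbud mean was 20.7% (SD 6.22, 26 cells), the highest of the 8. The mean share was 15.99% in epithelial cells (SD 2.98, 10 cells) and 15.6% in venous cells (SD 2.20, 8 cells). In arterial cells it was 14.7% (SD 2.94, 13 cells) and in EC2 14.5% (SD 2.46, 7 cells). The highest and lowest population means were thus 4.80 percentage points apart, or 6.17 over 94 cells. Neighbours in this order differed by less than the larger SD over cells of the pair.

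The endothelial progenitors can be set against the 3 differentiated endothelial populations within each stage. At 15-18 somites the EPC share was 19.4% (15.1% to 22.6%, 8 cells), above the venous share of 13.9% (13.1% to 14.6%, 4 cells) with no overlap. The arterial share at that stage was 15.6% (10.58% to 19.1%, 10 cells) and the EC2 share 15.8% (14.1% and 17.6%, 2 cells), and both overlapped with EPC. At 20 somites EPC had 19.2% (14.3% to 25.2%, 6 cells), with overlap against venous (17.3%, 4 cells), arterial (13.8%, 3 cells) and EC2 cells (13.1%, 5 cells). The EPC mean was the higher in all of these pairs at both stages, by 1.93 to 6.06 percentage points.

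Gene by gene the same order appeared in most members. Over 94 cells, 58 of 69 members had a higher mean log2 level in EPC than in arterial cells at both stages, where 31.8% of the 8439 genes above 1 TPM in at least 20 cells did so. The count was 53 of 69 against EC2 (25.2% of all genes) and 42 of 69 against venous cells (30.1%). The members' median difference between EPC and arterial cells was 0.43 on the log2 scale, against 0.14 over all genes. Erythrocytes were above arterial cells at both stages for 47 members (30.6% of all genes) and macrophages for 50 (30.5%). Members share cells, and their shares add to 1 total, so these counts are not independent of one another or of the mean share.

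Tailbud cells varied most. Without the 2 mitochondria-rich cells their shares ran from 10.05% to 35.6% over 26 cells, while all other populations together ran from 9.61% to 25.2%. Of the 7 cells with more than 25%, 6 were tailbud cells. These 6 had between 2060 and 3898 genes detected, against a median of 4096 over the 26 tailbud cells and 5489 over the cells of the other populations, and their mitochondrial part was 0.719% to 8.73%. Across the 26 tailbud cells the share and the number of genes detected had a Pearson correlation of -0.43 and a Spearman correlation of -0.39. Across the 68 cells of the other populations these values were 0.04 and 0.01. The cells of each stage share a library preparation and TPM is a closed total, so both correlations are descriptions only, and the part of cell complexity in the tailbud spread was not tested.

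**Figure D2:**
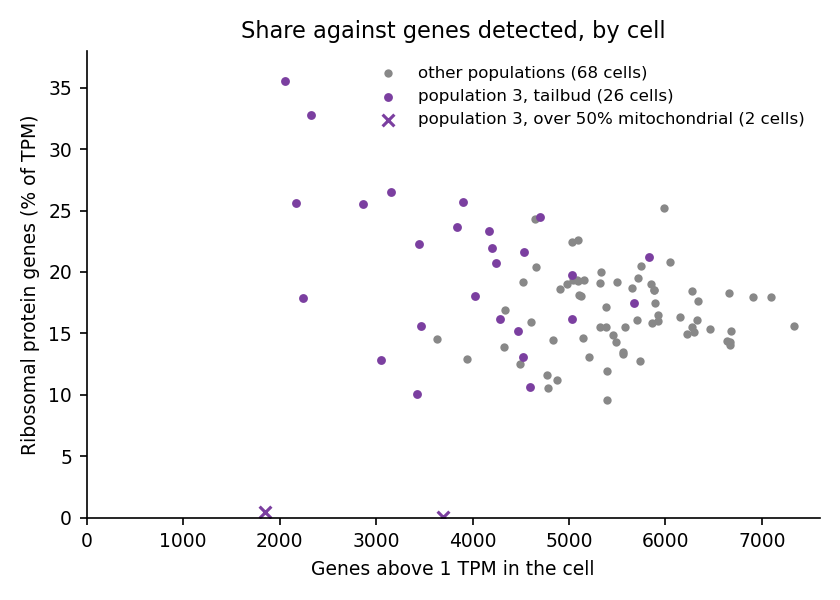
Share of TPM in ribosomal protein genes (vertical axis, percent) against the number of genes above 1 TPM (horizontal axis) in each of the 96 cells. The tailbud cells above 25% have 2060 to 3898 genes detected, and the 2 cells with mostly mitochondrial transcripts lie near 0%.

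Between the stages, the share was lower at 20 somites in 7 of 8 populations and higher in venous cells. The mean of the population differences was -0.80 percentage points over 96 cells and -1.19 over 94 cells, which was smaller than the spread of cells within most populations. EC2 went from 15.8% (2 cells) to 13.1% (5 cells) and macrophages from 19.1% (2 cells) to 17.2% (9 cells). Arterial cells went from 15.6% (10 cells) to 13.8% (3 cells), epithelial cells from 16.7% (6 cells) to 15.3% (4 cells), and EPC from 19.4% (8 cells) to 19.2% (6 cells). In each of these the cells of the stages overlapped, and several of the means rest on few cells. Erythrocytes had 18.7% and 19.3% in the 2 earlier cells and 15.4% to 18.6% in the 3 later ones, without overlap, although the nearest cells were 18.7% and 18.6%. In tailbud the mean went from 19.2% to 18.97% over all cells and from 22.3% to 18.97% without the 2 mitochondria-rich cells.

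The venous cells went the other way. Their shares at 15-18 somites were 13.1%, 13.3%, 14.5% and 14.6%, and at 20 somites 15.0%, 16.9%, 18.1% and 19.03%, so the cells did not overlap and the means differed by 3.38 percentage points. The number of genes detected was 4835 to 5565 in the earlier venous cells and 4342 to 6225 in the later ones, and the mitochondrial part was 1.17% to 3.82% and 1.24% to 3.30%, so both overlapped. Of 69 members, 56 had a higher mean log2 level in the later venous cells, where 47.8% of all genes did, and their median difference was 0.34 against 0.00.

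Over the 94 cells at most 29 members were higher at 20 somites in each of the other 7 populations, and in some of these all genes leaned the same way. In EC2 9 of 69 members were higher at 20 somites (42.6% of all genes), with a median difference of -0.33 against -0.23 over all genes. In tailbud 10 of 69 were higher over the 94 cells (49.7%), with a median of -0.35 against 0.00 over all genes. With the 2 mitochondria-rich cells included, 65 of 69 were higher in tailbud (54.5%) and the median was 0.74 against 0.09, so the direction there turned on 2 cells. The counts were 20 in arterial cells (45.9%), 21 in macrophages (57.9%), 22 in epithelial cells (43.1%), 23 in erythrocytes (54%) and 29 in EPC (48.7%). In epithelial cells the members' median of -0.16 was close to the -0.15 of all genes, and in arterial cells it was -0.17 against -0.11. In erythrocytes (-0.10 against 0.11) and macrophages (-0.11 against 0.24) the medians had opposite signs. The earlier stage had only 2 cells each of erythrocytes, macrophages and EC2, so their differences rest on few cells.

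**Figure D3:**
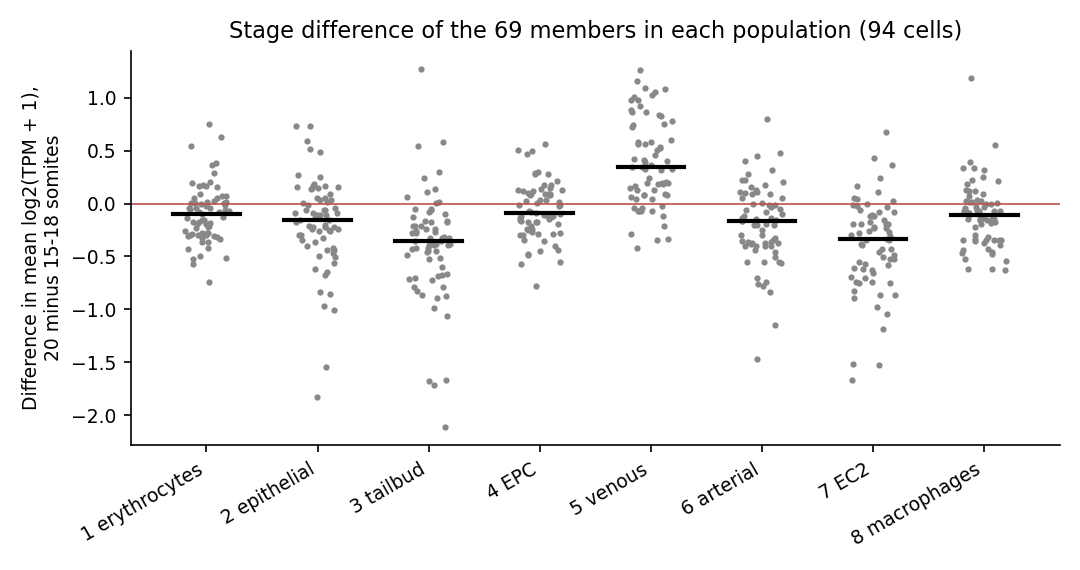
Difference in mean log2(TPM + 1) between 20 and 15-18 somites for each of the 69 members (points) in each population over 94 cells, with the median as a bar. The venous median lies above 0, at 0.34, and the other 7 medians lie below it, between -0.35 and -0.09.

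No member changed strongly with stage. None of 69 had a difference of at least 1 on the log2 scale, averaged over populations, where 10.7% of the 8439 genes tested did (11.2% of those above 1 TPM in at least 48 cells), and the median difference was -0.01 over 96 cells and -0.15 over 94. Higher values at 20 somites were seen for 33 of 69 members over 96 cells (50% of all genes) and 11 of 69 over 94 cells (48.5%). The largest positive differences over 96 cells were those of RPS2, a core protein of the small subunit, with 0.30, RPL7, with 0.24, and RPL8, a protein near the peptide-joining centre of the large subunit, with 0.23. Over 94 cells they were 0.14, 0.13 and 0.10. The lowest were those of RPL23A, which sits by the exit of the peptide tunnel, with -0.32, RPS7 with -0.18 and one of 2 RPL5 genes with -0.18; over 94 cells they were -0.44, -0.30 and -0.31. RPL23A had a mean of 2144 TPM (SD 987 over 48 cells) at 15-18 somites and 1855 TPM (SD 1016) at 20 somites, so the cells of the stages overlapped widely.

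Ribosomal protein genes varied less than most genes across populations. None of the 69 had population means at least 2 apart on the log2 scale, while 75.3% of all genes tested did, and 78.3% of the 3593 genes above 1 TPM in at least 48 cells. The median range over populations was 0.86 for the members and 3.04 for all genes tested; over 94 cells it was 0.72 and 3.02. The median coefficient of variation of TPM across cells was 0.47 for the members, 2.33 for all genes tested and 1.66 for genes above 1 TPM in at least 48 cells. Genes of high level vary less on these scales, and a comparison at matched level was not made.

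The second table the authors deposited holds log2 values of 13474 genes. Its values are those of the same TPM, so it restates the variation above and is no separate support. A gene was in it exactly when it was above 1 TPM in at least 5 cells and its 5th highest cell was at least 6-fold above its 5th lowest, both taken as TPM + 1. The smallest fold in that table was 6.004 and the largest fold of the genes left out was 5.978. Of the genes above 1 TPM in at least 5 cells, 89% passed, and 37 of the 69 members did (19 large, 18 small). The members' median fold was 6.16 (2.98 to 33.6), against 65.4 for all such genes. This fold depends on level and on detection in the lowest cells, and genes of matched level were not compared.

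Within the module levels differed by less than 10-fold between all members but one. Mean TPM lay between 1019 for RPS10 and 8858 for rps20 in 68 of the 69 genes. The 5 of highest level, rps20, rpl32, RPL19, RPL6 and RPL34, together held 17.8% of the members' TPM. The gene rps20, whose protein sits in the head of the small subunit, had a median of 8517 TPM and reached 17734, with a lowest value of 3981 over 94 cells; it was highest in erythrocytes (mean log2 13.46) and lowest in arterial cells (12.69). The gene rpl32 had a median of 6727 TPM and a lowest value of 3785 over 94 cells, and its coefficient of variation over 94 cells, 0.32, was the lowest of the 69. RPL19 had a median of 5426 TPM (790 to 13358 over 94 cells), RPL6 4715 TPM (1012 to 13669) and RPL34 4696 TPM (577 to 13442). The lowest value of any of these 5 in the 94 cells was thus the 577 TPM of RPL34.

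The lowest of these 68 members were still abundant. RPS10 had a median of 976 TPM, rps27.2 1074 TPM, RPL11 1109 TPM and the RPS26 gene ENSDARG00000030408 1173 TPM. Among the 68 members above 1 TPM in at least 48 cells, few values were missing: of 6392 values in the 94 cells, 4 were not above 1 TPM. In the 2 mitochondria-rich cells 48 of 136 were not.

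**Figure D4:**
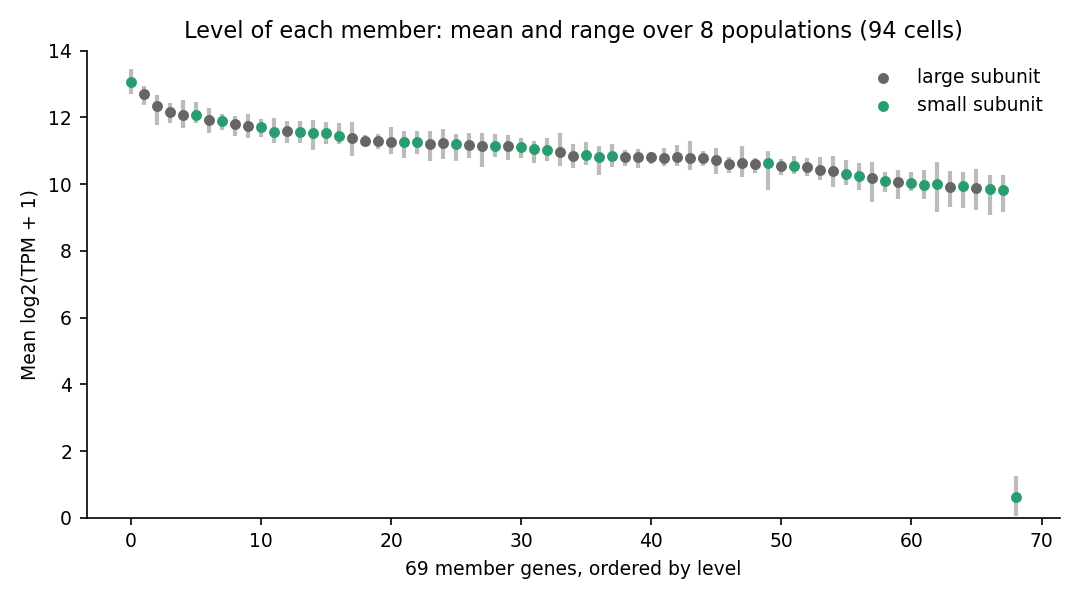
Mean log2(TPM + 1) of each of the 69 members (points, coloured by subunit) and the range of its 8 population means (grey lines) over 94 cells, with members ordered by level from left to right. The lines are short beside the spread between members (median range 0.72), and 68 of the 69 members lie close together.

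The members that ranged most between populations over all 96 cells ranged less without the 2 mitochondria-rich cells, to differing extents. The RPL5 gene ENSDARG00000015862 ranged by 1.49 on the log2 scale, the RPL5 gene ENSDARG00000020197 by 1.36, RPL23A by 1.34, RPS15A by 1.32 and rpl7a by 1.32. Over 94 cells these were 1.21, 0.88, 0.88, 0.59 and 0.91. In all, 39 members were lowest in tailbud over 96 cells and 8 over 94. Over the 94 cells the lowest population was arterial for 24 members, EC2 for 16, epithelial for 11, venous for 10 and erythrocytes for 0. The highest population was tailbud for 24 members, erythrocytes for 15 of the 69, EPC for 14 and macrophages for 12. Erythrocytes were likewise the highest population for 22.1% of the 8439 genes tested, so their count does not set the members apart. The other counts have no share over all genes beside them and are descriptions only. RPS25, chosen here after its values were seen, had the widest range over 94 cells, 1.48, from 10.66 in tailbud to 9.18 in venous cells. RPL10A, also chosen after its values were seen, had the narrowest, 0.30.

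Members varied together from cell to cell to a moderate extent. The correlation (Pearson, across 94 cells) of a member's log2 level with the mean of the other members had a median of 0.52 and ran from 0.07 to 0.72 among the 68 genes above 1 TPM in at least 48 cells. It was highest for RPL34 and lowest for the RPL5 gene ENSDARG00000020197. The members share libraries and the closed total of TPM, so the values are descriptions.

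The zebrafish carries more than 1 copy of some of these genes, and how evenly the copies shared the output differed between pairs. The authors' quantification can split the reads of near-identical copies between them, so a part held by 1 copy carries that uncertainty. The gene rps27.1 had a mean of 3287 TPM and rps27.2 1180 TPM, and rps27.1 was higher in 91 of 94 cells, with a median of 73.9% of the pair. Its mean by population, with stages weighted equally, lay between 69.6% in tailbud and 79.7% in arterial cells.

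The RPL5 and RPS26 pairs were near balance on average and far from it in single cells. RPS26 is a protein by the path of the message on the small subunit, and its gene ENSDARG00000037071 held a median of 54.3% of the pair over the 94 cells. Its mean by population, with stages weighted equally, lay between 49.3% in EPC and 62.9% in erythrocytes. RPL5 binds the smallest RNA of the large subunit together with RPL11. Its gene ENSDARG00000020197 (mean 1351 TPM) was higher than ENSDARG00000015862 (mean 1308 TPM) in 48 of 94 cells. The part of the former had a median of 50.2%, ran from 0.0795% to 97.0% over cells, and the correlation of the 2 log2 levels was 0.15.

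The RPL5 balance over the 94 cells was close between the stages, with medians of 48.4% at 15-18 somites and 51.8% at 20 somites. Within populations, which are small groups of cells, the medians moved in different directions. In venous cells the part of ENSDARG00000020197 had a median of 47.6% (26.7% to 67.5%, 4 cells) at 15-18 somites and 72.4% (53.9% to 83.6%, 4 cells) at 20 somites. In epithelial cells it was 58.4% (47.1% to 74.8%, 6 cells) and then 27.4% (5.58% to 52.6%, 4 cells). In tailbud it was 50.5% (0.0795% to 63.7%, 12 cells) and 68.7% (22.4% to 97.0%, 14 cells). The cells of the stages overlapped in all 3 populations. In erythrocytes they did not, with 32.2% and 48.6% in the 2 earlier cells and 50.8% to 53.6% in the 3 later ones. The medians went from 43.4% to 39.7% in EPC and from 46.3% to 36.8% in arterial cells. They went from 55.4% to 60.2% in EC2 and from 41.1% to 51.7% in macrophages. The cells of the stages overlapped in each of these populations too.

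The acidic stalk of the large subunit, which recruits the elongation factors, was represented by RPLP0, RPLP1 and rplp2l. RPLP0, the base of the stalk, had a median of 4243 TPM (527 to 8825 over 94 cells), RPLP1 3833 TPM (977 to 8564) and rplp2l 2434 TPM (902 to 7122). Their ranges over populations were 0.74, 0.70 and 0.89 over 94 cells, near the members' median of 0.72. RPLP0 was highest in macrophages, and RPLP1 and rplp2l in tailbud cells.

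The genes tied to Diamond-Blackfan anaemia in humans had levels and ranges within the span of the other members, with several at its low end. RPS10, RPL11 and the RPS26 gene ENSDARG00000030408 were among the 5 members of lowest level. The 11 identifiers of the set include RPS7, RPL35A, RPS19, RPS24, RPL11, RPS10 and the pairs of RPL5 and RPS26. They ranged by 0.47 to 1.21 over populations, with a median of 0.85 against 0.72 for all members. Over the 94 cells erythrocytes were the highest population for 4 of the 11, EPC for 3, macrophages for 2 and tailbud for RPL35A and RPS19. Erythrocytes were highest for 15 of all 69 members and for 22.1% of the 8439 genes tested. With only 11 identifiers, the count of 4 is a description, and an excess in erythrocytes was not tested. RPS19, the gene most often mutated in the human disease, had a median of 1678 TPM (564 to 3983 over 94 cells), was highest in tailbud (mean log2 10.85) and lowest in EC2 (10.30). RPL11 ranged most of the 11, by 1.21, from 10.45 in EPC to 9.24 in arterial cells.

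Genes that act with the ribosome differed from it in how they varied. Most elongation factors and other genes with TOP messages varied little between populations, as the members did, whereas genes that build ribosomes varied widely. Over 94 cells the mean log2 level of the members ranged by 0.44, from 10.63 in arterial cells to 11.06 in EPC. Of 19 names of elongation factors and TOP partners 12 were matched, and their mean ran from 8.10 in epithelial cells to 9.09 in erythrocytes. Only 3 of these 12 ranged by at least 2, where 75% of all genes did: faub, which encodes a ubiquitin-like protein fused to a small-subunit protein, with 4.83, pabpc1b, a poly(A)-binding protein, with 4.36, and EEF1G, an elongation factor subunit, with 2.34. The first 2 were low, with mean log2 levels of 2.77 for faub (above 1 TPM in 43 cells) and 1.51 for pabpc1b (26 cells). EEF1G had 9.26. Levels were not matched, so the part of level in these ranges was not tested.

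The ribosome-building genes were highest in erythrocytes. Their 13 matched genes (of 16 names) had a mean log2 level of 8.39 in erythrocytes, 5.98 in macrophages and 5.03 in EPC, and of 3.14 in arterial, 3.21 in venous and 3.49 in EC2 cells. All 13 ranged by at least 2, as 75% of all genes did, and erythrocytes were the highest population for each, as for 22.1% of all genes. The widest was npm1a, a nucleolar chaperone, from 11.20 in erythrocytes to 2.99 in venous cells; FBL, which methylates ribosomal RNA, went from 9.89 to 4.69 in EC2. Stage differences of at least 1 were seen for 3 of the 13, all lower at 20 somites, as 6.45% of all genes were, with -1.82 for npm1a, -1.48 for DKC1, which modifies ribosomal RNA, and -1.03 for ncl, the nucleolar protein nucleolin. The erythrocytes were 5 cells, so their mean rests on few cells. The list also had a lower mean log2 level than the members (4.77 against 10.85), and levels were not matched.

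Mitochondrial ribosomal proteins, which serve the separate ribosome of that organelle, also varied more than the cytosolic ones, but at a far lower level. Their mean log2 level over populations was 2.52, against 10.85 for the members, and no comparison at matched level was made. The range of the list mean was 3.42, and 1.81 with a pseudocount of 10 TPM. Of 65 genes, 59 were above 1 TPM in at least 20 cells, and 58 of these ranged by at least 2 (75% of all genes). At 20 somites 8 of the 59 were higher by at least 1 (4.46% of all genes) and 2 were lower by at least 1 (6.45%). The mean of the 65 ran from 1.55 in venous cells to 4.97 in erythrocytes, with MRPL21 the widest (8.57 in erythrocytes, 1.38 in epithelial cells). The Spearman correlation of the summed TPM with the members' share over 94 cells was 0.55 for the elongation and TOP list, 0.28 for ribosome building and 0.19 for mitochondrial ribosomal proteins. For the 13 mitochondrial transcripts it was 0.29, and their widest gene was MT-ND2, with 10.35 in erythrocytes and 6.89 in arterial cells.

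**Figure D5:**
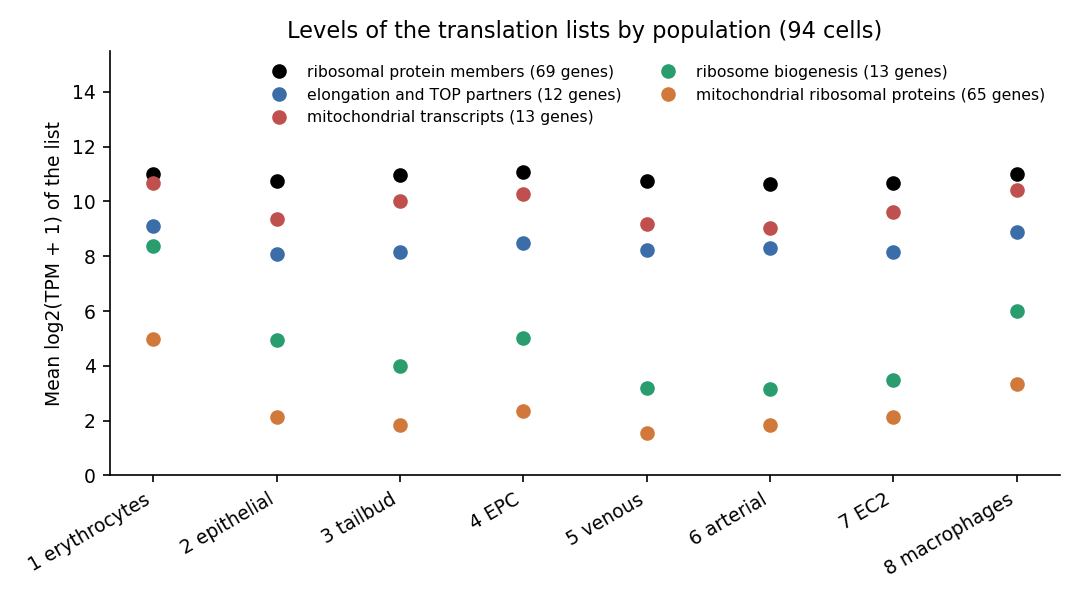
Mean log2(TPM + 1) of the ribosomal protein members and of 4 related gene lists in each population over 94 cells. The members (black) stay between 10.63 and 11.06, while the ribosome-building genes (green) run from 3.14 in arterial cells to 8.39 in erythrocytes.

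Genes of growth control and of the stress response were also followed. Of 10 names of growth control, 7 were matched, with a mean from 2.40 in tailbud to 4.83 in erythrocytes, and 6 of the 7 ranged by at least 2, a share near the 75% of all genes. The widest was eif4ebp1, a repressor of cap-dependent translation, from 9.81 in macrophages to 2.85 in arterial cells. The 4 stress-response genes had a mean from 3.01 in EC2 to 6.10 in erythrocytes, and all 4 ranged by at least 2, which with 4 genes says little beside the 75% of all genes. Their widest was mdm2, from 4.98 in erythrocytes to 0.66 in EC2.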

How the data were processed

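Values were the deposited TPM of 27931 genes in 96 cells. Per the methods, the authors quantified reads with Kallisto in AltAnalyze against Ensembl release 72 of the Zv9 assembly; read filters are not given in the sources used here, and TPM keeps no depth, so no counting error can be given. The authors' deposited log2 values of 13474 genes equal log2(TPM + 1) to within 5e-11 and were used only to see which genes they hold. Populations came from the deposited grouping, which was built from these cells, and deposited comparison columns of the marker table were not used.

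Symbols came from a gene-name table (71.7% of identifiers), often in human-style capitals, and denote zebrafish genes. The share is the members' TPM over all TPM of a cell. Levels are means of log2(TPM + 1) per population and stage, with a pseudocount of 1 TPM and stages weighted equally. On this scale changes of low genes are understated. Genes above 1 TPM in at least 20 cells were compared across genes, with limits of 1 for stage and 2 for the population range (log2). With 1 sample per stage no test was run.

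Named members were the 5 highest, 5 lowest, 5 of widest population range over 96 cells, 3 of largest rise and 3 of largest fall, duplicate pairs, stalk proteins and Diamond-Blackfan genes; other genes named are the widest of each list, and RPS25, RPL10A, FBL, DKC1, ncl, EEF1G and pabpc1b were added after their values were seen. The values of a few single genes are not reported here. Members and lists were chosen with earlier results of these data known. Computations used Python 3.11.15, numpy 2.4.6, pandas 2.3.3 and matplotlib 3.10.9, and were tested on simulated data.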

Additional observations from a re-analysis of the deposited data

How the results depend on the processing

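Of 82 alternatives, 77 left a result within the spread used as a yardstick and 5 moved it by more. The yardstick was the SD over cells, populations or members because there were no replicates. It is wide beside some results, so the count does not measure how stable they are. Stage differences of -1.39 and -0.37 percentage points both fell within it, beside a main value of -0.80. With a pseudocount of 0.1 TPM, 1 member passed the limit on the population range in place of 0. With a pseudocount of 10 TPM the range of the list mean over populations was 1.42 for growth control, 1.97 for the stress-response genes and 1.81 for mitochondrial ribosomal proteins. Without the 2 mitochondria-rich cells the members' median stage difference was -0.15. The mean share lay between 13.9% and 19.1%, its range over populations between 4.04 and 7.03 percentage points, and its stage difference between -1.39 and -0.37, with -1.39 to -0.52 when 1 population was left out. Leaving out the 2 cells, adding 5 genes whose names the rule does not take (among them RPSA2, faub, RACK1 and si:dkey-151g10.6), adding rps19bp1 and removing mitochondrial transcripts from the total were chosen after seeing the data. No paired analysis was possible because each stage is 1 sample. TPM keeps no depth, so a value of 0 does not show absence.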

Other observations

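Several genes that the naming rule did not take encode ribosomal proteins or close partners, and they followed the members in level and evenness. RPSA2, whose name is close to that of the small-subunit gene rpsa, had a mean of 1396 TPM and ranged by 0.59 over populations across 94 cells. RACK1, a scaffold on the small subunit, had 2751 TPM and a range of 0.997. The gene si:dkey-151g10.6, which the RefSeq table lists under the synonym rpl41, had 10878 TPM, above every member, and a range of 0.59. In contrast faub had 49.8 TPM, was above 1 TPM in 43 cells and ranged by 4.83.

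The names with an l mark that the rule left out fell into different classes of behaviour. RPL36AL had a mean of 923 TPM and ranged by 0.82, within the values of the members. RPL7L1, a ribosome assembly factor rather than a ribosomal protein, had 202 TPM and ranged by 4.88, and RPL22L1 had 453 TPM and ranged by 2.37. The gene rps11l had 1.33 TPM and was above 1 TPM in 27 cells.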
